A study of Mus musculus with 12 samples.

Results

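The genes described here encode the ligands of the transforming growth factor beta (TGF-beta) pathway, their receptors, and proteins of the latent TGF-beta binding family. The secreted glycoprotein gene Fstl1 is described with them. They were chosen by name, as every probe that is not a control and whose gene name in the scanner files was Tgfb1, Tgfb2, Tgfb3, Tgfbr1, Tgfbr2, Tgfbr3, Ltbp1, Ltbp2, Ltbp3 or Fstl1. The rule found 10 genes with 17 probes, out of 39429 probes on the array. All 17 passed the filter on dim probes, as did 27141 probes of the whole array, which stood for 20464 genes.

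The data are 12 arrays of whole skin from male C57BL/6 mice aged about 8 weeks, in 4 groups of 3 biological replicates. Incised skin carried a sutured wound of 1 cm and received, 72 h after wounding, either 100 nmol of a mimic of miR-29b (the mimic, labelled promiR-29) or PBS, the vehicle, by injection into the dermis. Intact skin, with no wound, received either 100 nmol of antimiR-29, an inhibitor of miR-29, or PBS in the same way. Skin was taken 24 h after the injection, and each array set its RNA in Cy5 against a common mouse reference RNA in Cy3. Values below are log2 ratios of skin over that reference. They compare arrays for 1 probe, and a difference of 1 between arrays is a change by a factor of 2, while levels of different probes cannot be set against each other. The samples were whole skin, so fewer cells of a type and less RNA per cell cannot be told apart. The oligonucleotides have no control oligonucleotide among these groups, and PBS is the only comparison. The questions were how wound gene expression differed when miR-29 was supplied, how intact skin differed when it was blocked, and how wounded and intact skin differed.

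TGF-beta is secreted as a dimer that stays bound to its own propeptide. Latent TGF-beta binding proteins, among them those encoded by Ltbp1 and Ltbp3, tether this inactive complex to fibres of the extracellular matrix. Integrins or proteases release the ligand from it. The free ligand binds the type II receptor kinase (Tgfbr2), which recruits and phosphorylates the type I receptor kinase (Tgfbr1), and Smad proteins carry the signal to the nucleus. Betaglycan (Tgfbr3) is a coreceptor that presents ligand, above all TGF-beta2. In skin the pathway is known for driving fibroblasts to make collagen and contract a wound, and it restrains keratinocyte growth and inflammation. Fstl1, a secreted protein of mesenchymal cells, is known to modulate signalling by the related bone morphogenetic proteins. miR-29 is known for repressing many collagen and other matrix genes, and TGF-beta is known to lower miR-29 in fibroblasts.

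The 3 mature miRNAs of the miR-29 family are shown because the mimic copies 1 of them and the inhibitor is directed at miR-29. They are given as RefSeq lists them for GRCm38.p6, 5′ to 3′, with the seed (bases 2 to 8) in capitals:
mmu-miR-29a-3p: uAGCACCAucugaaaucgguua
mmu-miR-29b-3p: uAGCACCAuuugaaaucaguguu
mmu-miR-29c-3p: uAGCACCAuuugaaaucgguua
All 3 share the seed AGCACCA, and they differ from each other only after it. The reverse complement of that seed, TGGTGCT, searched on the strand of the transcript, lies in 0 of the 17 probes of these genes and in 0.543% of all 39429 probes. A probe covers only a short stretch of a transcript, so this says nothing about sites elsewhere in it, and 0 probes on the array were named for a miR-29 gene, so miR-29 itself was not read out.

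The probes for Tgfb1 and Tgfb2 are shown because they share a similar stretch of 2 related ligands, whose values lay on opposite sides of 0 with mimic without passing the threshold. Positions of all probes are those of the mm9 build in the scanner files. The Tgfb1 probe (A_51_P390715) lies at chr7:26489877-26489936 on the plus strand, and the Tgfb2 probe (A_65_P10913) at chr1:188449333-188449392 on the minus strand. Capitals mark the bases that are identical when the 2 probes are set against each other without gaps:
Tgfb1 probe: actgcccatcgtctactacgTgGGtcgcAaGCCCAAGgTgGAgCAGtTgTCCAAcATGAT
Tgfb2 probe: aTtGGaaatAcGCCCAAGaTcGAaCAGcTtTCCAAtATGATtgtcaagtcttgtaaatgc
They overlap over 41 bases, of which 28 (68.3%) are identical, and whether either probe binds the other gene's transcript was not tested. The upstream probe of Tgfbr2 (A_55_P2107288, chr9:115999496-115999555, minus strand) is shown because its value after wounding had the opposite sign to that of the other Tgfbr2 probe:
Tgfbr2 upstream probe: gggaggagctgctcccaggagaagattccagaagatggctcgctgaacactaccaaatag
The other Tgfbr2 probe (A_51_P450573, chr9:115997155-115997214) lies 2341 bases further downstream on the same strand. A gene annotation of the mm9 build was not used here, so the exon or untranslated region under a probe is not given.

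Between 65.6 and 73.8% of an array's probes were detected in Cy5, whose signal had a median of 3.67 to 5 times background, with 0 saturated spots. Of the listed markers, 9 of 9 of keratinocytes and 12 of 12 of fibroblasts were above background on all 12 arrays. Among the arrays, intact PBS 3 resembled its group least (median correlation across genes of 0.921 to the other 2, against 0.94 or more for every other array). Intact PBS array 2 had a hair follicle marker score of 3.52, against -0.5 to -0.1 on the other arrays, where a score is the median of a list's log2 ratios after each gene was centred to its mean of all arrays. The arrays lay on 3 slides of 4. Slide 1 held the 3 incised PBS arrays with mimic array 1, slide 2 held mimic arrays 2 and 3 with intact PBS arrays 1 and 2, and slide 3 held the 3 antimiR arrays with intact PBS array 3.

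Of the 10 genes, 4 passed the threshold for wounding, 0 for mimic and 0 for antimiR. In incised against intact skin under PBS, Tgfb1 and Ltbp2 rose and Tgfbr2 and Tgfbr3 fell, at the brightest probe of each gene and at a Benjamini-Hochberg adjusted p under 0.05 in limma. These 4 of 10 stand beside 15.4% of all genes called in that comparison. All incised PBS arrays lay above all intact PBS arrays for 3 of the genes and below them for 2, beside 19.8% of all genes above, 15.4% below and 35.2% in either direction. The median log2 fold change over the 10 genes was 0.01, and over all genes it was 0.

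With mimic against PBS in incised skin, 0 of 10 genes passed in limma, beside 0.591% of all genes (0.205% higher and 0.386% lower). An unadjusted limma p under 0.05 was found for 2552 of all 20464 genes and for 4 of the 10 (Tgfb1, Tgfb2, Tgfb3 and Fstl1). Of these, Tgfb1 was higher and the other 3 were lower on every mimic array than on every PBS array. In all, 1 gene was higher and 4, with Tgfbr2, were lower without overlap, beside 12.5% of all genes higher, 11.7% lower and 24.2% in either direction. The median over the 10 genes was -0.25 and that over all genes 0. In a fit of only the 2 compared groups limma called 2 of the 10 (Tgfb3 and Fstl1) and with array weights 4 (also Tgfb1 and Tgfb2). Of all genes, these fits called 438 and 816, in place of 121.

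With antimiR against PBS in intact skin, 0 of 10 genes passed in limma, beside 9.71% of all genes. An unadjusted limma p under 0.05 was found for 4923 of all 20464 genes and for 4 of the 10 (Tgfb1, Tgfbr2, Ltbp1 and Fstl1). The groups did not overlap for 2 genes that were higher (Tgfb1 and Ltbp1) and 1 that was lower (Tgfbr2), beside 14.1% of all genes higher, 11.7% lower and 25.8% in either direction. The median was -0.04 over the 10 genes and 0.01 over all genes. With scale normalization between arrays limma called 4 of the 10 (Tgfb1, Ltbp1 and Ltbp2 higher, Tgfbr2 lower), while it called 3891 of all genes in place of 1987.

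**Figure D1:**
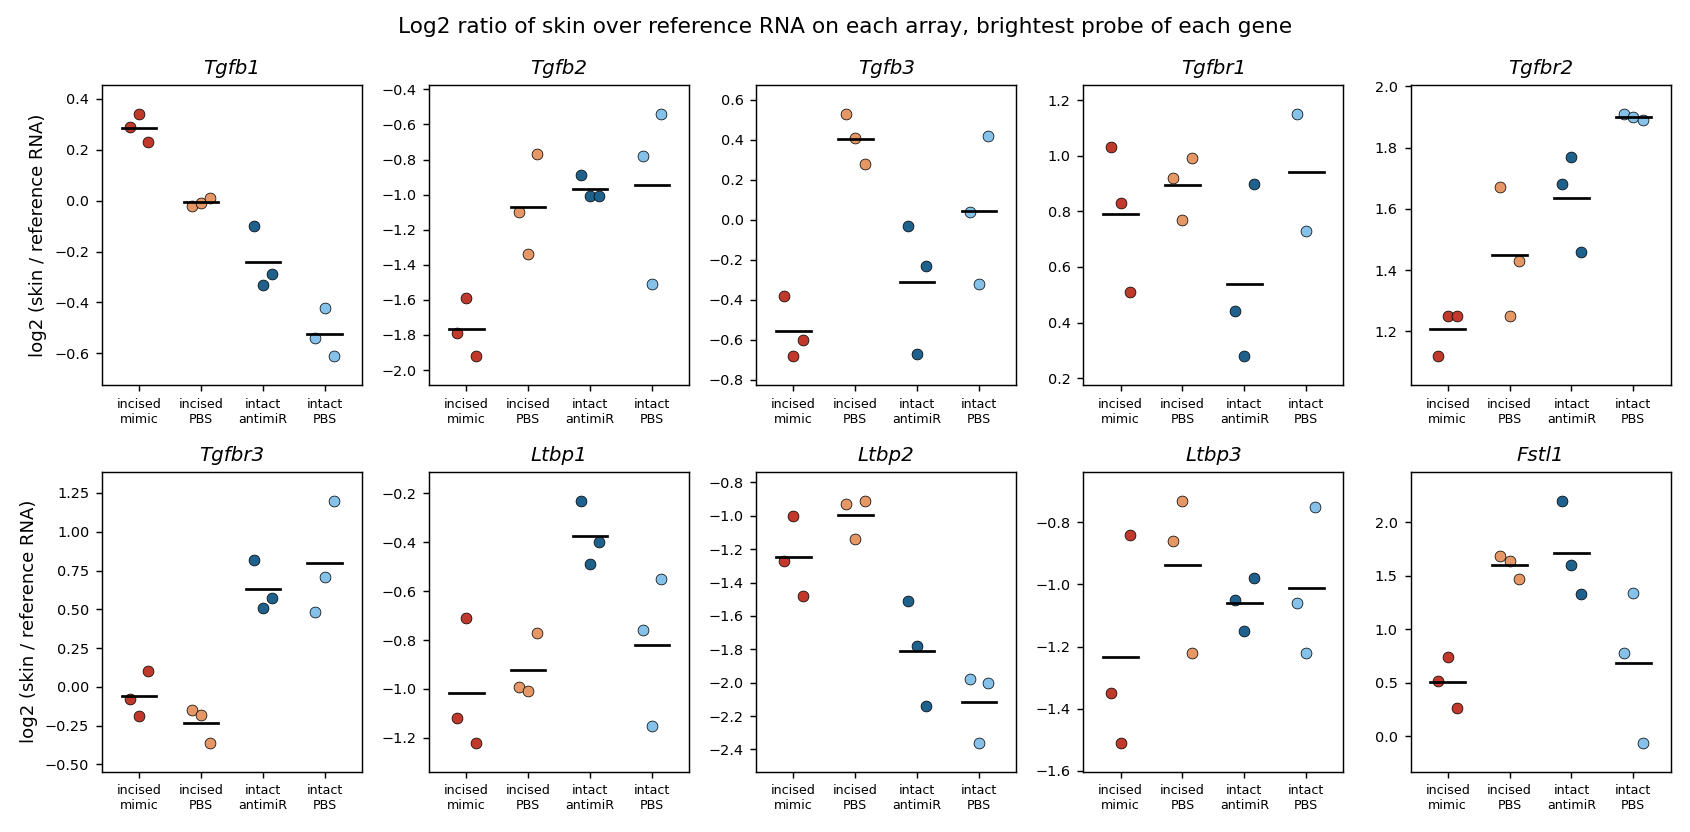
Log2 ratio of skin over reference RNA (vertical axes, each with its own range) on the 3 arrays of each group, at the brightest probe of each gene, with black lines at the group means. The 4 groups of Tgfb1 are separate, incised and intact skin are separate for Tgfbr3 and Ltbp2, and Tgfbr1 has only 2 intact PBS values.

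Among the ligands, Tgfb1, the most widely expressed TGF-beta, had a separate range in each group (probe A_51_P390715). Its log2 ratios were 0.29, 0.34 and 0.23 on the mimic arrays, against -0.02, -0.01 and 0.01 on the incised PBS arrays. They were -0.10, -0.33 and -0.29 on the antimiR arrays, against -0.54, -0.42 and -0.61 on the intact PBS arrays. In that order the 4 groups descend with no overlap between neighbours. Tgfb1 was read by 9 or 10 spots per array, whose SD within an array had a median of 0.078, and the SD between the arrays of a group ran from 0.01 to 0.13.

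The rise of Tgfb1 in incised skin was 0.52 ± 0.08 on the log2 scale (± is the standard error of the fit throughout, adjusted p = 0.0035, a factor of 1.43). It was called in each of 6 fits that left out 1 array of the compared groups. With mimic Tgfb1 was at 0.29 ± 0.08 (adjusted p = 0.15, 95% interval 0.11 to 0.48) and with antimiR at 0.28 ± 0.08 (0.057, 0.10 to 0.47). Both oligonucleotides thus came with a higher mean than their own PBS group, and limma did not call either difference. Within slide 1 the 1 mimic array was 0.30 above the 3 PBS arrays, and within slide 3 the 3 antimiR arrays were 0.37 above the 1 PBS array. With antimiR Tgfb1 passed under scale normalization (0.39, adjusted p = 0.017), in the authors' deposited table (0.33, 0.03) and with trend and robust variance (0.28, 0.04).

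Scores of myeloid markers were higher after wounding, as Tgfb1 was, while with mimic and with antimiR they overlapped those of PBS. Of 11 macrophage markers 10 were above background on all 12 arrays, 5 rose and 0 fell in incised against intact PBS skin, and their score ran from 0.26 to 0.41 on incised PBS arrays and from -0.42 to -0.10 on intact PBS arrays. With antimiR their score ran from -0.72 to 0.09, against that same range on intact PBS arrays. Of the 11, 2 rose (Fcgr1 at 2.49 and Cd68 at 1.26) and 0 fell, while 7 had negative values and the median was -0.23. With mimic the macrophage score ran from 0.32 to 0.48, against 0.26 to 0.41 on incised PBS arrays. Of 8 measured neutrophil markers, all above background on all arrays, 2 rose after wounding, with scores of 0.06 to 0.33 on incised PBS arrays and -0.53 to -0.36 on intact PBS arrays. With antimiR 1 of them rose, with scores of -0.55 to 0.16, and with mimic 0 were called, with scores of 0.22 to 0.69. The markers that rose stand beside 9.86% of all genes called higher after wounding and 5.24% with antimiR. The part of these cells in the Tgfb1 values was not tested.

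Tgfb2, the ligand that depends most on betaglycan, was lowest in mimic-treated wounds. At the brightest probe its log2 ratios were -1.79, -1.59 and -1.92 on the mimic arrays, against -1.10, -1.34 and -0.77 on the incised PBS arrays. They were -0.89, -1.01 and -1.01 on the antimiR arrays, against -0.78, -1.51 and -0.54 on the intact PBS arrays. Each mimic array was below each of the other arrays, and the other 3 groups overlapped one another.

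The difference with mimic was -0.70 ± 0.22 (adjusted p = 0.20, 95% interval -1.19 to -0.21), which did not pass, and -0.72 within slide 1. The second Tgfb2 probe (A_51_P317640, chr1:188447534-188447593, minus strand), 1799 bases further downstream, gave -0.64 ± 0.20 (adjusted p = 0.22). Both probes thus gave a like value without overlap of the groups. With Cy5 alone in place of the ratio the mimic value was -0.24 (adjusted p = 0.80). Tgfb2 was at -0.13 ± 0.22 after wounding (-0.61 to 0.36) and at -0.03 ± 0.22 with antimiR (-0.52 to 0.46), and neither passed.

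Tgfb3, a ligand that in fetal skin is associated with healing without a scar, had the smallest p of the 10 genes with mimic (probe A_51_P124748, chr12:87397804-87397863, minus strand). Its log2 ratios were -0.38, -0.68 and -0.60 on the mimic arrays, against 0.53, 0.41 and 0.28 on the incised PBS arrays. They were -0.03, -0.67 and -0.23 on the antimiR arrays, against 0.04, -0.32 and 0.42 on the intact PBS arrays. Mimic and PBS wounds did not overlap. In the order of means, incised PBS, intact PBS, antimiR and mimic, each group overlapped the next.

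The mimic value was -0.96 ± 0.20 (adjusted p = 0.066, 95% interval -1.39 to -0.53), and -0.79 within slide 1. It was negative in all 22 alternative fits, and limma called it in 2 of them, with only the compared groups (adjusted p = 0.02) and with array weights (0.014). Tgfb3 also had 10 spots per array, with a median SD within an array of 0.075 against SDs between arrays of a group from 0.12 to 0.37. With antimiR it was at -0.35 ± 0.20 (adjusted p = 0.31, -0.79 to 0.08) and after wounding at 0.36 ± 0.20 (0.23, -0.07 to 0.80). Within slide 3 the antimiR value was -0.73. Without intact PBS array 2 it was -0.54, without intact PBS array 3 -0.16 and without antimiR array 2 -0.17. The wound value was 0.18 without intact PBS array 2 and 0.55 without intact PBS array 3.

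**Figure D2:**
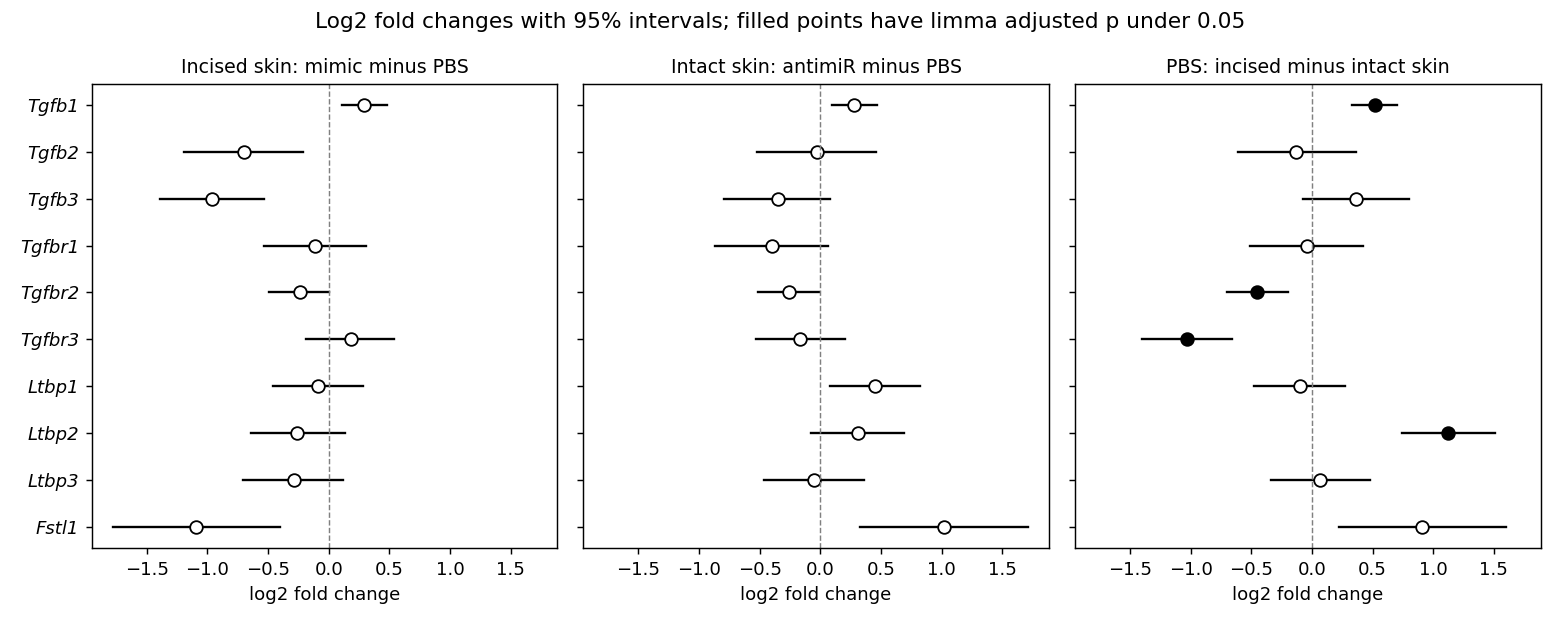
Log2 fold changes (horizontal axes) of the 10 genes at the brightest probe in the 3 comparisons, with 95% intervals as lines and filled points where limma's adjusted p was under 0.05. Filled points appear only for wounding, where Tgfb1 and Ltbp2 are above 0 and Tgfbr2 and Tgfbr3 below it, while with mimic the intervals of Tgfb2, Tgfb3 and Fstl1 lie below 0.

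Among the receptors, Tgfbr1, the type I receptor kinase, did not pass in any comparison at its brightest probe (A_55_P2137206, chr4:47427736-47427795, plus strand). Its log2 ratios were 1.03, 0.83 and 0.51 on the mimic arrays, against 0.92, 0.77 and 0.99 on the incised PBS arrays. They were 0.44, 0.28 and 0.90 on the antimiR arrays, against 1.15 and 0.73 on intact PBS arrays 1 and 2, since the spot of intact PBS array 3 was left out as an outlier. All 4 groups overlapped in turn.

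Tgfbr1 was at -0.11 ± 0.19 with mimic (-0.53 to 0.31), -0.40 ± 0.21 with antimiR (-0.87 to 0.06) and -0.04 ± 0.21 after wounding (-0.51 to 0.42). Its adjusted p values in these comparisons were 0.88, 0.28 and 0.91. The antimiR value ran from -1.28 with Cy5 alone to -0.13 with the mean over probes, and from -0.61 without intact PBS array 2 to -0.19 without intact PBS array 1. In the authors' deposited table it passed (-0.57, adjusted p = 0.032).

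The other 3 Tgfbr1 probes were dimmer. A_55_P2137211 (chr4:47424946-47425005) had log2 ratios of 0.15, 0.23 and 0.46 on the incised PBS arrays, against -0.19, -0.34 and -0.01 on the intact PBS arrays. It was above background on 9 of the 12 arrays, and it rose by 0.46 ± 0.11 in incised skin (adjusted p = 0.017, in the fit of every kept probe). That fit called 5 of the 17 probes after wounding, 3 higher beside 9.62% of all probes and 2 lower beside 5.81%, with 15.4% called in either direction (3 probes without incised PBS array 3). It called 0 of 17 with mimic, beside 0.523%, and 0 of 17 with antimiR, beside 11.4%. The brightest Tgfbr1 probe did not show that rise.

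A_55_P2137211 and A_55_P1960901 (chr4:47395833-47395892) were not well above background on any of the 3 antimiR arrays and were above it on all 3 intact PBS arrays. Mean log2 Cy5 signal was 6.65 on intact PBS and 6.43 on antimiR arrays at the first probe, and 6.53 and 6.45 at the second. In the limma fit of every kept probe the antimiR value was -0.25 ± 0.11 at the first (adjusted p = 0.17, -0.48 to -0.01). At the second it was -0.09 ± 0.08 (adjusted p = 0.56, -0.26 to 0.09). Neither passed, and the detection calls set no lower limit on a fold change. The Cy5 signals are open to dye bias, since dyes were not swapped. A_55_P1960906 (chr4:47374114-47374173) was above background only on the 3 incised PBS arrays, and its log2 ratio there did not differ past the threshold from the mimic arrays (-0.08 ± 0.09, adjusted p = 0.79) or the intact PBS arrays (0.19 ± 0.09, 0.17). Its mean log2 Cy5 signal was 6.69 on incised PBS, 6.35 on mimic and 6.21 on intact PBS arrays. These differences are larger than those of its ratio to the reference, and they are open to the same dye bias.

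Tgfbr2, the type II receptor kinase that binds the ligand, fell at its brightest probe in wounded skin, while its other probe had a positive value that did not pass. At the brightest probe the log2 ratios were 1.67, 1.25 and 1.43 on the incised PBS arrays, against 1.91, 1.90 and 1.89 on the intact PBS arrays. At the upstream probe they were 1.08, 0.84 and 1.27 on the incised PBS arrays, against 0.65, 0.81 and 0.45 on the intact PBS arrays. The groups did not overlap at either probe, and the directions were opposite.

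The brightest probe fell by 0.45 ± 0.11 on the log2 scale (adjusted p = 0.023), while the upstream probe was at 0.43 ± 0.18 (adjusted p = 0.12, 95% interval 0.04 to 0.82). The downstream minus the upstream value differed by -0.88 ± 0.16 between incised and intact PBS skin (adjusted p = 0.0052, -1.23 to -0.53), in a limma fit over 5230 genes with 2 or more placed probes, of which 15.1% were called. With mimic the difference was -0.02 ± 0.16, beside 0.0191% called, and with antimiR 0.20 ± 0.16, beside 17.5% called. That fit was added after the 2 values had been seen. A fall of Tgfbr2 as a gene therefore rests on the choice of probe: the mean over both probes was at -0.01 (adjusted p = 0.96), and the authors' deposited table gave -0.03 (0.95). The call at the brightest probe ended in 10 of 22 alternatives, among them those without incised PBS array 2 (-0.35, 0.082), incised PBS array 3 (-0.44, 0.07) or intact PBS array 1 (-0.44, 0.053).

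Both Tgfbr2 probes had negative values with both oligonucleotides. With mimic the brightest probe had 1.12, 1.25 and 1.25, against the incised PBS values above, which met them at 1.25 when rounded, a difference of -0.24 ± 0.11 (adjusted p = 0.41, -0.49 to 0.00), and the upstream probe gave -0.22 ± 0.18. With antimiR the brightest probe had 1.68, 1.77 and 1.46, all below the intact PBS values above, a difference of -0.26 ± 0.11 (adjusted p = 0.18, -0.51 to -0.01). The upstream probe gave -0.46 ± 0.18 with antimiR (adjusted p = 0.12), on log2 ratios of 0.04, 0.56 and -0.07. Limma called neither probe with either oligonucleotide. Under scale normalization the antimiR value at the brightest probe passed, at -0.73 (adjusted p = 0.0027).

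Tgfbr3, or betaglycan, was lower on the arrays of incised skin (probe A_65_P16059, chr5:107535818-107535877, minus strand). The log2 ratios were -0.08, -0.19 and 0.10 on the mimic arrays, against -0.15, -0.18 and -0.36 on the incised PBS arrays. They were 0.82, 0.51 and 0.57 on the antimiR arrays, against 0.48, 0.71 and 1.20 on the intact PBS arrays. The arrays of incised skin lay below all those of intact skin, and within each kind of skin the 2 groups overlapped.

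After wounding Tgfbr3 fell by 1.03 ± 0.17 on the log2 scale (adjusted p = 0.0035, a factor of 0.490), and leaving out 1 array at a time gave -1.19 to -0.83 with a call in each of 6 fits. With mimic it was at 0.18 ± 0.17 (adjusted p = 0.74, -0.19 to 0.54) and with antimiR at -0.17 ± 0.17 (0.60, -0.53 to 0.20). Without intact PBS array 3 the antimiR value was 0.04.

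**Figure D3:**
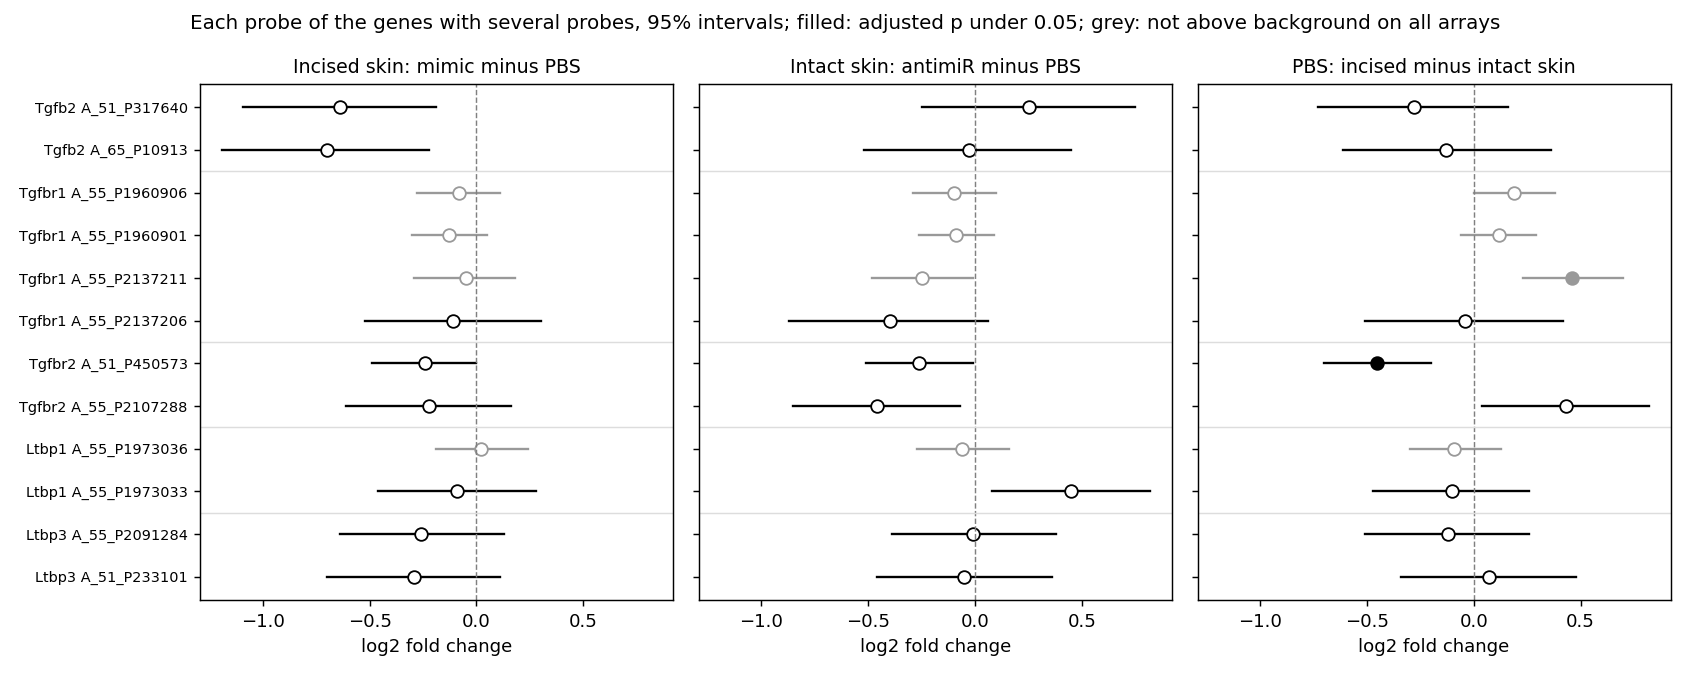
Log2 fold changes (horizontal axes) at each probe of the 5 genes with several probes, with 95% intervals as lines, filled points where the adjusted p in the fit of every kept probe was under 0.05, and grey for probes not above background on all 12 arrays. For wounding the 2 Tgfbr2 probes lie on opposite sides of 0, at -0.45 and 0.43, and 1 dim Tgfbr1 probe is filled at 0.46.

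Of the 3 Ltbp genes, only Ltbp2 was called in any comparison at the brightest probe. Ltbp2 is a fibre protein that, unlike the others of its family, is known not to bind latent TGF-beta, and its probe (A_55_P1970105, chr12:86124167-86124226, minus strand) gave the largest rise of the 10 genes after wounding. Its log2 ratios were -1.27, -1.0 and -1.48 on the mimic arrays, against -0.93, -1.14 and -0.91 on the incised PBS arrays. They were -1.51, -1.78 and -2.14 on the antimiR arrays, against -1.98, -2.36 and -2.0 on the intact PBS arrays. Incised and intact skin did not overlap, and within each kind of skin the treated and PBS arrays did.

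The rise of Ltbp2 after wounding was 1.12 ± 0.18 (adjusted p = 0.003, a factor of 2.18), and it was called in each of 6 fits without 1 array, at 1.0 to 1.2. With mimic it was at -0.26 ± 0.18 (adjusted p = 0.62, -0.64 to 0.13) and with antimiR at 0.31 ± 0.18 (0.33, -0.08 to 0.69). Under scale normalization the antimiR value was 0.80 and passed (adjusted p = 0.02).

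Ltbp1, which anchors the large latent complex in fibroblast matrix, was highest in antimiR skin at its brightest probe (A_55_P1973033, chr17:75790530-75790589, plus strand). The log2 ratios were -0.23, -0.49 and -0.40 on the antimiR arrays, against -0.76, -1.15 and -0.55 on the intact PBS arrays. They were -1.12, -0.71 and -1.22 on the mimic arrays, against -0.99, -1.01 and -0.77 on the incised PBS arrays. The antimiR arrays lay above all others, and the other 3 groups overlapped.

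With antimiR Ltbp1 was at 0.45 ± 0.17 (adjusted p = 0.13, 0.08 to 0.82), which did not pass, and within slide 3 it was 0.17. The second Ltbp1 probe (A_55_P1973036, chr17:75446945-75447004), which lies 343585 bases upstream, was above background on 8 arrays, of which 1 was an antimiR and 2 were intact PBS arrays. Its antimiR value was -0.06 ± 0.10, near background, so the 2 probes are not compared. Ltbp1 was at -0.09 ± 0.17 with mimic (-0.46 to 0.28) and -0.10 ± 0.17 after wounding (-0.48 to 0.27).

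Ltbp3, which is known to bind and help secrete latent TGF-beta, did not pass in any comparison and its 4 groups overlapped. At the brightest probe (A_51_P233101, chr19:5758289-5758346, plus strand) its log2 ratios were -1.35, -1.51 and -0.84 on the mimic arrays, against -0.86, -0.73 and -1.22 on the incised PBS arrays. They were -1.05, -1.15 and -0.98 on the antimiR arrays, against -1.06, -1.22 and -0.75 on the intact PBS arrays. The differences were -0.29 ± 0.19 with mimic (-0.71 to 0.12), -0.05 ± 0.19 with antimiR (-0.46 to 0.36) and 0.07 ± 0.19 after wounding (-0.34 to 0.48). Its second probe (A_55_P2091284) gave -0.26, -0.01 and -0.12 in the same comparisons.

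Fstl1 had the largest difference of the 10 genes in both oligonucleotide comparisons, with opposite signs (probe A_55_P2143517, chr16:37836492-37836551, plus strand). Its log2 ratios were 0.52, 0.74 and 0.26 on the mimic arrays, against 1.68, 1.64 and 1.47 on the incised PBS arrays. They were 2.20, 1.6 and 1.33 on the antimiR arrays, against 0.78, 1.34 and -0.06 on the intact PBS arrays. Mimic wounds were separate from PBS wounds, whereas antimiR and intact PBS skin overlapped, as antimiR array 3 was just below intact PBS array 2.

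With mimic Fstl1 was at -1.09 ± 0.31 (adjusted p = 0.16, 95% interval -1.78 to -0.40) and -1.07 within slide 1. With antimiR it was at 1.02 ± 0.31 (adjusted p = 0.067, 0.33 to 1.71). It was 1.77 with slide as a fixed block, where limma called it. That value is the same as the difference within slide 3, so it rests on intact PBS array 3 as the only control. The antimiR value differed with the intact PBS array left out, being 0.65 without intact PBS array 3, 1.35 without intact PBS array 2, where limma called it (adjusted p = 0.018), and 1.77 within slide 3, where intact PBS array 3 was the control. After wounding Fstl1 was at 0.91 ± 0.31 (adjusted p = 0.074, 0.22 to 1.60), with no overlap between the groups. That value was 1.24 without intact PBS array 2, where limma called it (adjusted p = 0.02), 0.53 without intact PBS array 3, and 0.51 with slide as a fixed block (0.65).

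The mimic effect minus the antimiR effect is the test of a difference between the 2 effects. In the fit of 1 probe per gene limma called 0 of the 10 genes, beside 1.09% of all genes (0.621% higher and 0.465% lower). An unadjusted limma p under 0.05 was found for 2884 of all 20464 genes and for 3 of the 10 (Ltbp1, Ltbp2 and Fstl1). The difference for Fstl1 was -2.11 ± 0.44 (adjusted p = 0.054, -3.09 to -1.13). In the fit of every kept probe the same value had an adjusted p of 0.044, so that 1 of 17 probes was called, as lower, beside 0.486% of all probes called lower and 1.54% in either direction. The Fstl1 difference thus lay at the threshold, on 1 side of it in each fit, and limma called it without intact PBS array 2 (-2.44, adjusted p = 0.023) or array 3 (-1.74, 0.035). For Tgfb1 the difference was 0.01 ± 0.12 (-0.25 to 0.27), for Tgfb2 -0.67 ± 0.31 (-1.36 to 0.02) and for Tgfb3 -0.61 ± 0.28 (-1.22 to 0.01). The 2 effects come from different kinds of skin, so the oligonucleotide and the wound cannot be told apart in this comparison.

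Some cell type marker scores differed beside the mimic and antimiR values. The counts of called markers stand beside 0.591% of all genes called with mimic and 9.71% with antimiR. Of 12 fibroblast markers 3 fell and 0 rose with mimic (Pi16 at -1.60, Clec3b at -1.52 and Dpt at -0.83), and all 12 were above background on all arrays. In all, 9 had negative and 2 positive values. Pdpn was at 0.72 ± 0.21 (limma adjusted p = 0.15) with no overlap of the groups, and Pdgfra, Vim and Thy1 were at 0, 0.11 and -0.12. The fibroblast score ran from -0.32 to -0.30 on mimic arrays and from 0.26 to 0.30 on incised PBS arrays. Of 11 skeletal muscle markers 3 fell, with scores of -0.47 to -0.11 on mimic arrays and 0.15 to 0.28 on incised PBS arrays. Of 6 platelet markers 4 were measured, 0 were called, and their score ran from 0.62 to 0.78 on mimic arrays and from -0.16 to 0.13 on incised PBS arrays. That score is a median of 4 unlike values, with Ppbp at 2.51 and Pf4 at 1.06, and Itga2b at 0.07 and Gp1bb at 0.02. With antimiR 1 fibroblast marker rose and 1 fell, and the score ran from -0.25 to 0.18 on antimiR arrays and from -0.03 to 0.28 on intact PBS arrays. All 11 skeletal muscle markers had negative values with antimiR and 2 fell, with scores of -0.26 to 0 on antimiR arrays and 0.15 to 0.36 on intact PBS arrays. Of 8 measured T and NK cell markers 1 rose with antimiR (Cd3d at 1.04), with scores of 0.11 to 0.21 on antimiR arrays and -0.37 to -0.07 on intact PBS arrays. The part of cell numbers in the values of these genes was not tested.

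The wound calls and slides cannot be told apart within a slide, since no slide held both incised and intact PBS arrays. In a fit with slide as a fixed block, which links the 2 groups through the mimic arrays on slides 1 and 2, limma called 0 of the 10 genes and 11 of all genes. The values there were 0.47 for Tgfb1 (adjusted p = 0.27), -0.32 for Tgfbr2 (0.56), -0.79 for Tgfbr3 (0.22) and 1.21 for Ltbp2 (0.22). With slide as a random block Tgfb1, Tgfbr3 and Ltbp2 were called and Tgfbr2 was not (adjusted p = 0.05).

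The other genes of the pathway were read in lists, each beside the same background. Of all genes, 15.4% were called after wounding, 9.71% with antimiR and 0.591% with mimic. Of 17 measured genes of ligand activation, 8 rose and 1 fell in incised against intact PBS skin, beside 9.86% of all genes called higher and 5.55% called lower, with a median of 0.55. Mmp9, a protease that can release latent TGF-beta, rose by 2.21 ± 0.33, and Lrrc32, which displays latent TGF-beta on the cell surface, by 0.71 ± 0.11 (adjusted p = 0.0024 and 0.0028). Ltbp4, the remaining latent TGF-beta binding protein, fell by 0.59 ± 0.09 (0.003). With antimiR 4 of the 17 rose and 2 fell, beside 5.24% and 4.47% of all genes, with Emilin1, an inhibitor of TGF-beta processing, at 0.62 ± 0.13, Lrrc32 at 0.52 ± 0.11 and Nrros, the myeloid counterpart of Lrrc32, at 0.84 ± 0.19. With mimic 0 of 17 were called, and Nrros was at 0.52 ± 0.19 (adjusted p = 0.29).

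Among genes known to respond to TGF-beta, 22 were measured, with a median of 0.40 after wounding. Of these, 6 rose and 1 fell, beside 9.86% and 5.55% of all genes. Timp1, an inhibitor of metalloproteinases, rose by 1.70 ± 0.26, Acta2, the actin of myofibroblasts, by 0.66 ± 0.13, and the matrix glycoprotein gene Tnc by 1.20 ± 0.26 (adjusted p from 0.0027 to 0.011). With mimic 0 of 22 were called and 17 were negative, with a median of -0.23, and Itga11, a collagen-binding integrin subunit, was at -1.15 ± 0.25 (adjusted p = 0.077). With antimiR 1 fell, the cell cycle inhibitor Cdkn1a at -0.82 ± 0.18 (0.018), 0 rose, and the median was 0.17.

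Between receptor and nucleus, 14 genes of Smad proteins, kinases and proteins that act with them were measured. After wounding 1 rose and 1 fell (Tgfb1i1 at 0.57 ± 0.15 and Smad9 at -0.42 ± 0.11), beside 9.86% and 5.55% of all genes. With antimiR 2 rose and 2 fell (by smallest p, Tab1 at 0.37 ± 0.08 and Zfyve9 at -0.51 ± 0.11), beside 5.24% and 4.47%, and 0 were called with mimic. Of 8 receptor partners only Eng, or endoglin, was called, by rising 0.45 ± 0.13 after wounding and 0.45 ± 0.13 with antimiR, comparisons that share the intact PBS arrays. Of 15 listed regulators, most of them inhibitors, 1 rose after wounding (Skil, a Smad corepressor, at 0.66 ± 0.09) and 3 fell, beside 9.86% and 5.55% of all genes. Of those that fell, the Smad phosphatase gene Ppm1a had the smallest p, at -0.44 ± 0.10. With antimiR 2 of the 15 fell, beside 4.47% of all genes, and 0 rose. These were Smurf2, a ubiquitin ligase that targets the receptors, at -0.49 ± 0.08 and Ppm1a at -0.43 ± 0.10. With mimic 0 of the 15 were called, and Pmepa1, which is induced by TGF-beta and restrains it, was at -0.73 ± 0.15 (adjusted p = 0.07).

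Of 25 measured genes of the related activin and bone morphogenetic protein axis, 4 fell and 2 rose with antimiR, beside 4.47% and 5.24% of all genes. Among those that fell were the receptor genes Bmpr1a at -0.47 ± 0.07, Bmpr2 at -0.74 ± 0.14 and Bmpr1b at -0.77 ± 0.15 (adjusted p from 0.0019 to 0.0096). After wounding 1 fell and 1 rose, beside 5.55% and 9.86% of all genes. Bmpr1a fell by 0.35 ± 0.07 and Inhba, the activin A subunit, rose by 0.68 ± 0.18 (adjusted p = 0.0079 and 0.032), and with mimic 0 of 25 were called.

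**Figure D4:**
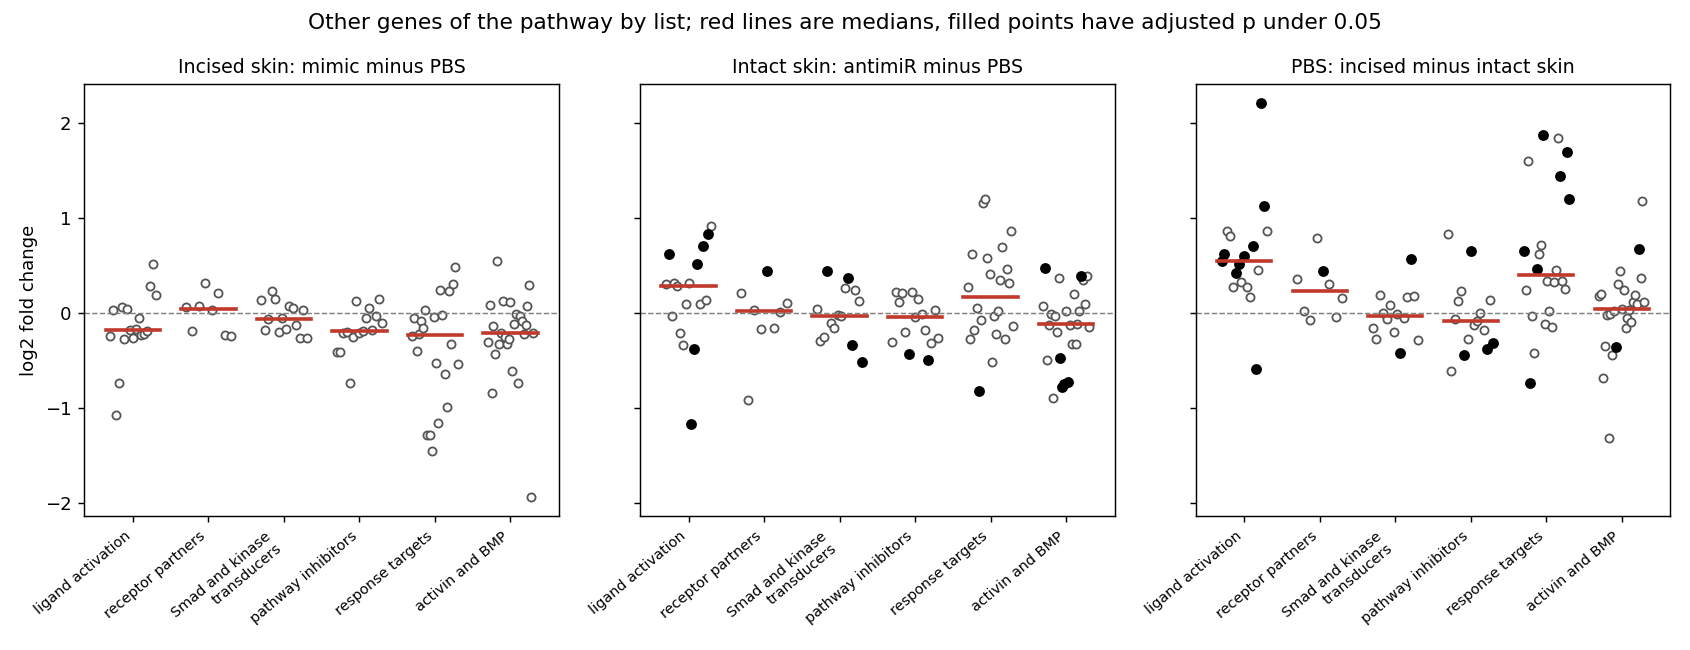
Log2 fold changes (vertical axis) of the other genes of the pathway in 6 lists, with a point per gene, filled where limma's adjusted p was under 0.05, and red lines at the list medians. For wounding most filled points are in the ligand activation and response lists, whose medians are 0.55 and 0.40, and with mimic no point is filled.

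The genes whose log2 ratios followed each of these genes most closely over the 12 arrays are given as a description, since the arrays share groups and slides. Over 15237 named genes with a value on all arrays, Ptpn18 had a Pearson correlation of 0.99 with Tgfb1. Sparc (0.941), Col1a2 (0.925) and Pcolce (0.925), all genes of collagen or of proteins that act with it, followed Fstl1. Only for Fstl1 is more than the closest gene named. Pja2 (0.959) followed Tgfb3, Tmem109 (0.915) followed Tgfb2, Kcnn2 (0.961) the brightest Tgfbr2 probe and Myrip (0.968) Tgfbr3. Tox (0.97) followed Ltbp1, Actc1 (0.953) Ltbp2 and Nedd4 (0.918) Ltbp3. Tgfbr1 had no value on 1 array and was left out.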

How the data were processed

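The scanner files gave spot and background intensity in each dye and a log10 ratio of the processed signals, made with Agilent Feature Extraction 11.5.1.1, per the file headers. A table of log2 values per gene name, deposited by the authors, was used as an alternative. Its columns correlated at 0.891 to 0.918 with the skin over reference ratios computed here, with medians of -0.041 to 0, so its direction was taken as skin over reference. How it was normalized is not given in the sources used here.

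Mean intensities were corrected with normexp (offset 50) and loess within each array in limma 3.58.1 (R 4.3.3). Outlier and control spots were dropped before replicate spots were averaged into probes. The filter on dim probes asked for Cy5 above background on 3 or more arrays. Probes without a gene name were left out, as decided after a first fit with them had been seen. That fit was run as an alternative, and it called the same number of the 10 genes in each comparison. A gene was represented by its brightest kept probe, and 16511 genes were named through RefSeq. Groups were fitted over all 12 arrays with lmFit and eBayes, with 2-sided p values adjusted by Benjamini-Hochberg over all genes, or over all probes in the fit of every probe. The procedure was tested on simulated data that held no slide effect, so that test says nothing about slides. The number of arrays limits the precision. Replicates were labelled as biological. Slides were read from the file names.

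The 10 genes, the lists and the tests were chosen with earlier results of these data known. Named were all 10 genes with their probes, up to 3 genes of smallest p from a list in each comparison, and genes most correlated with each of the 10. Marker genes called in a described list were also named, after their values were seen. Alternatives changed the background correction, normalization, filter, probe choice, model, slide or replicate block, and left out each array in turn.

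The numbers of biological replicates did not pair the samples. Deviations of arrays with the same number correlated at -0.444 to 0.289 between the compared groups.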

Additional observations from a re-analysis of the deposited data

Results flagged for a closer look

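The effect of mimic on Fstl1 in incised skin and that of antimiR in intact skin differed by -2.11 ± 0.44 on the log2 scale, with -1.09 for mimic and 1.02 for antimiR. This stood out because limma's test of the difference itself passed in the fit of every kept probe (adjusted p = 0.044), while it did not in the fit of 1 probe per gene (adjusted p = 0.054).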

How the results depend on the processing

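Signs of the alternative values of single genes were compared after rounding to 2 decimals, and a value that rounded to 0 was not counted as a change. By that count 845 kept their sign and their side of the threshold, 24 newly passed, 13 no longer passed and 44 changed sign. All of the last came from values that were not called. Except where a cause shows in the alternative's construction, the cause was not tested. With antimiR the count of 0 called genes became 4 with scale normalization, 2 in the authors' deposited table, and 1 with trend and robust variance, with slide as a fixed block (Fstl1) and with the replicate block (Fstl1). For the mimic effect minus the antimiR effect 0 became 1 (Fstl1) with probes above background on all 12 arrays, trend and robust variance, array weights or the replicate block. Of all genes, those fits called 239, 281, 505 and 170 in that order, in place of 222. With mimic 0 became 2 in a fit of only the compared groups and 4 with array weights. After wounding 4 became 0 with slide as a fixed block. Leaving out 1 array gave 0 with mimic, 3 to 5 after wounding, 0 to 1 with antimiR and 0 to 1 for the difference between effects, where Fstl1 passed without intact PBS array 2 or 3. Over all 17 probes, antimiR went to 1 with the replicate block and 1 with the slide block, wounding to 0 with the slide block, and the difference between effects to 0 with it. Leaving out 1 array gave 0 to 2 probes with antimiR, 3 to 7 after wounding (3 without incised PBS array 3, against 5) and 0 to 1 for the difference. The replicate numbers did not pair the samples, and with the block 77 genes were called with mimic, in place of 121. Signs changed as follows. Processed signals gave -0.05 for Ltbp3 after wounding. Scale normalization gave 0.19 for Tgfb2 and 0.20 for Ltbp3 with antimiR, 0.05 for Tgfb2 and 0.05 for Ltbp1 after wounding, and -0.11 for the Tgfb1 difference between effects. Cy5 alone gave 0.01 for Ltbp1 with mimic, 0.23 for Tgfbr1 and -0.06 for Ltbp3 after wounding, and differences between effects of 0.26 for Tgfb2, -0.06 for Tgfbr2 and 0.01 for Ltbp3. The deposited table gave 0.11 for Tgfb2 with antimiR, and 0.44 for Tgfbr1 and -0.06 for Ltbp3 after wounding. The mean over probes gave 0.26 for Tgfbr1 and -0.02 for Ltbp3 after wounding, the most downstream probe 0.25 for Tgfb2 with antimiR, and array weights -0.06 for the Tgfbr2 difference. Slide as a fixed block gave 0.13 for Tgfbr1 with mimic, 0.11 for Tgfb2 and 0.19 for Ltbp1 after wounding, and differences of -0.07 for Tgfb1 and -0.08 for Tgfbr2, and as a random block -0.01 for Tgfb1. Leaving out 1 array gave, with mimic, -0.23 to 0.03 for Tgfbr1 and -0.25 to 0.01 for Ltbp1. With antimiR it gave -0.31 to 0.17 for Tgfb2, -0.33 to 0.04 for Tgfbr3 and -0.15 to 0.08 for Ltbp3. After wounding it gave -0.41 to 0.08 for Tgfb2, -0.26 to 0.17 for Tgfbr1, -0.27 to 0.03 for Ltbp1 and -0.03 to 0.22 for Ltbp3, and for the differences -0.04 to 0.08 for Tgfb1 and -0.08 to 0.13 for Tgfbr2. Over all genes, the 121 called with mimic became 38 with processed signals, 25 with scale normalization, 43 with Cy5 alone, 16 in the deposited table, 438 with only the compared groups, 71 with trend and robust variance, 816 with array weights, 59 with slide as a random and 0 as a fixed block. The 1987 with antimiR became 3891, 1200 and 537 under scale normalization, Cy5 alone and only the compared groups, and the 3154 after wounding 4600, 1741 and 1365 under those and 11 with the slide block. Leaving out 1 array gave 1 to 54 with mimic (1 without incised PBS array 1), 1090 to 2096 with antimiR and 1693 to 2964 after wounding. Of the wound calls 64% were higher, against 51.3% under scale normalization, and of the antimiR calls 54%, against 65% with Cy5 alone. In all, 3 Tgfbr1 probes and 1 Ltbp1 probe were near background, which limits what they can show.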
